A study of Rattus norvegicus with 8 samples.

Results

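Cytotoxic lymphocytes, the natural killer (NK) cells and killer T cells, store proteins in granules and release them onto target cells. Perforin opens the target's membrane, granzymes pass through and cleave proteins inside, and the target dies. 7 genes of this system are described here in rat lung: Prf1 (perforin), Gzma, Gzmb and Gzmk (granzymes, serine proteases), Nkg7 (a granule membrane protein needed for granule release in mice), Klrd1 (CD94, the partner chain of NKG2 receptors on NK cells) and Ctsw (cathepsin W, a protease of NK cells and killer T cells in humans and mice). They were chosen by gene symbol and are read by 8 of the 20242 probe sets of the array, 2 of them for Gzmb and 1 for each other gene. The set was put together with results of these arrays known, in which lymphocyte markers, Nkg7 and Gzma among them, were low after prone ventilation. The members' values and differences are therefore a description and carry no test of their own.

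Lung RNA was taken from the dorsal-caudal quadrant in male Sprague-Dawley rats of 340 to 400 g (no age is stated). 3 rats were ventilated in the supine position and 3 in the prone position, both at a high tidal volume (18 mL per kg, 40 breaths per minute, end-expiratory pressure 0 cmH2O) for up to 3 hours under anaesthesia with a tracheotomy and a jugular cannula. 2 rats were not ventilated (NV) and are the controls. Supine rats carry SVt in their titles. Their condition label gives the same high tidal volume as for prone rats, and it was followed. The tissue is a mixture of cells, so fewer lymphocytes and less RNA per lymphocyte cannot be told apart in any result below. Values are GCRMA values on the log2 scale, on which 1 unit is a doubling and values of about 2 to 4 lie at the low end, where signal and background cannot be separated.

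Lung was recognisable on every array: the surfactant gene Sftpc read 15.02 to 15.51 and the alveolar type 1 gene Ager 13.29 to 14.54. 2 ventilated arrays carried heart muscle genes. The median of 5 such genes stood 5.86 above the NV mean on prone replicate 2 and 5.01 above it on supine replicate 3, against -0.05 to 0.47 on the other 6 arrays. Supine replicate 3 also had a wide gap between the 3′ and 5′ probe sets of beta-actin (9.10, against 3.16 to 4.64 elsewhere), the usual sign of degraded RNA. The median of 9 neutrophil genes stood 1.32 to 4.17 above the NV mean on the ventilated arrays, highest on supine replicate 1 (3.71) and prone replicate 1 (4.17). Genes of the mesothelium, the sheet that covers the lung, stood at -3.72 to -3.27 in supine and -3.25 to -1.67 in prone lungs (median of 6 genes by array). Bnc1 passed the test described below in both groups (-3.72 in prone and -3.79 in supine lungs) and Gpm6a in supine lungs (-3.69). The median of 4 erythroid genes was -0.20 to 1.01 in supine and 0.22 to 2.00 in prone lungs, all against the NV mean. The part of these differences in the members' values was not tested.

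The members' promoters are shown because their transcripts varied together across the arrays and the series holds no other readout of their control. RefSeq windows on GRCr8, from 250 bases before to 50 after the gene start, were at hand for 5 of the 7 members. Of 8 short motifs searched on both strands, TGTGGT, the core bound by RUNX factors, was in 5 of 5 member windows and in 17.3% of the 33469 windows of 300 bases. The T-box core GGTGTGA was in 1 of 5 (Gzmk; 3.83% of all windows), the ETS motif AGGAAG in 3 (34.5%), its form CGGAA in 2 (30.4%), the AP-1 site TGACTCA in 1 (4.63%), the cyclic AMP element TGACGTCA in 0 (1.83%), TATAAA in 2 (14.2%) and a spaced pair motif of interferon regulatory factors in 1 (3.92%). The 2 ETS forms differ in the base before GGAA. The motifs were chosen with the members known, and a match describes letters and not a site. 3 windows follow, 5′ to 3′ on the gene's strand, with TGTGGT or its reverse ACCACA in capitals: Gzma (chr2:46485647-46485946, minus strand) and Gzmb (chr15:34462420-34462719, minus strand), whose transcripts were alike on the arrays, and Prf1 (chr20:29788790-29789089, plus strand), whose transcript varied least of the 6 members above the low end.
Gzma: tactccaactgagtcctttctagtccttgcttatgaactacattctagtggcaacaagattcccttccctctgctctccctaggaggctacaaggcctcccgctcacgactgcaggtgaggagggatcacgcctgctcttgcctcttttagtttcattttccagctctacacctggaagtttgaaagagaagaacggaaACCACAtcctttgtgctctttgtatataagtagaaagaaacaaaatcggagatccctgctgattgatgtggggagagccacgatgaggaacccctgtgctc
Gzmb: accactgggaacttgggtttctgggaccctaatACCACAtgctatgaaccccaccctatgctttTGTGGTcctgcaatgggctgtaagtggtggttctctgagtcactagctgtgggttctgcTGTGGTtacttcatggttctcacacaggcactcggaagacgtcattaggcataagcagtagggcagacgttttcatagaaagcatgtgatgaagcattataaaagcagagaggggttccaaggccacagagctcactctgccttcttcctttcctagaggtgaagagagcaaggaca
Prf1: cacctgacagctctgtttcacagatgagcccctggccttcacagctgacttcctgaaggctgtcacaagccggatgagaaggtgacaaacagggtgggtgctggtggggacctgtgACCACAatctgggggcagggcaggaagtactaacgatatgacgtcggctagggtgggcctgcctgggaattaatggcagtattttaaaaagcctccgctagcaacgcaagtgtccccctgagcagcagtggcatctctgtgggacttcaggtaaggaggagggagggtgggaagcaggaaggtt
With negative positions for bases before the start, the core began at -51 in Gzma, at -217, -186 and -127 in Gzmb, and at -134 in Prf1. It began at -180 in Gzmk and at -106 in Nkg7. Gzma and Gzmk lie next to each other on chromosome 2 with 0 other genes starting between them in the RefSeq table.

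6 of the 7 members reached log2 5 on at least 2 arrays, the filter used for testing, and Ctsw did not. Ctsw read 3.00, 2.74 and 2.85 in supine lungs, 2.82, 2.81 and 2.74 in prone lungs, and 4.005 and 2.73 in NV lungs, all at the low end, so no level of it can be given in any group. The other members lay between 7.66 and 11.97 on the NV arrays, Prf1 being the highest reading, although readings of different probe sets do not rank genes.

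The granzymes split the prone lungs. Gzma, a granzyme that cuts after basic residues, read 10.18, 7.76 and 7.99 in supine lungs, 9.49, 3.22 and 2.11 in prone lungs (replicates 1 to 3, here and below), and 9.76 and 8.28 in NV lungs. Prone replicate 1 thus lay among the controls, and prone replicates 2 and 3 lay at the low end. Gzmb, which cuts after aspartate and starts caspases, read 10.30, 8.34 and 9.84 on its brighter probe set in supine lungs, 10.25, 5.79 and 4.07 in prone lungs, and 9.52 and 8.31 in NV lungs. The second Gzmb probe set gave 10.07, 7.81 and 8.35 in supine lungs and 9.89, 4.23 and 3.26 in prone lungs. In NV lungs it gave 9.23 and 8.17. Within each group the order of arrays was the same on both probe sets. On both probe sets prone replicate 1 and supine replicate 1 exceeded both NV arrays. Gzmk, a granzyme close to Gzma in specificity, read 8.83, 8.63 and 8.15 in supine lungs, 8.42, 3.97 and 4.59 in prone lungs, and 9.97 and 9.13 in NV lungs. For Gzmk every ventilated array lay below both NV arrays, by little in the supine lungs and far below on prone replicates 2 and 3.

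Prf1 and the surface and granule membrane members did not follow the granzymes throughout. Prf1 read 9.55, 10.40 and 9.15 in supine lungs, 10.37, 9.31 and 8.79 in prone lungs, and 11.97 and 10.94 in NV lungs. All 6 ventilated arrays lay below both NV arrays and the positions overlapped almost fully. Klrd1 read 8.31, 7.98 and 6.48 in supine lungs, 7.69, 5.15 and 5.07 in prone lungs, and 9.58 and 8.60 in NV lungs, again with every ventilated array below both controls. Nkg7 read 8.50, 6.62 and 4.89 in supine lungs, 7.59, 2.40 and 2.71 in prone lungs, and 9.10 and 7.66 in NV lungs. Its prone and NV groups did not overlap, but prone replicate 1 minus NV replicate 2 was only -0.07, and supine replicate 1 lay among the controls.

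**Figure D1:**
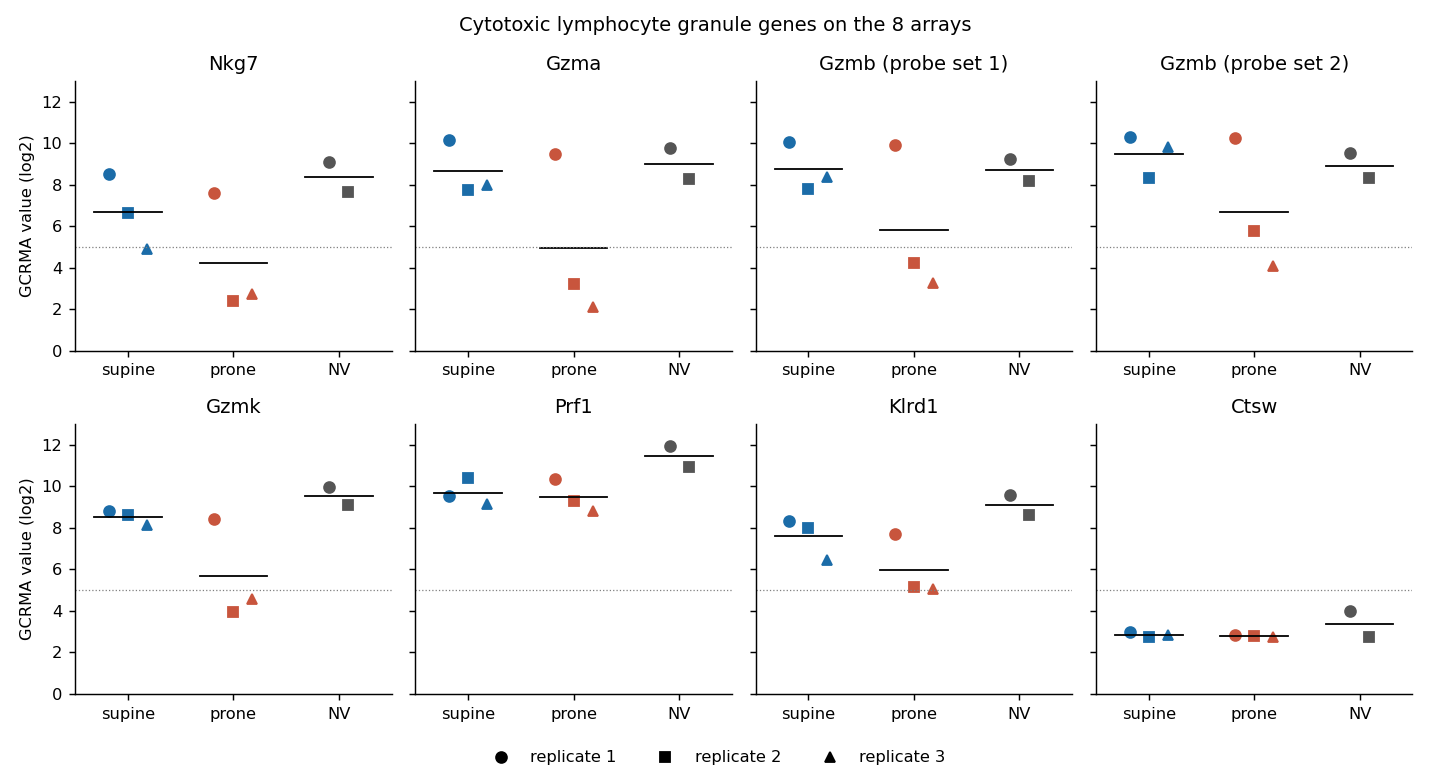
Log2 GCRMA value (vertical axis) of each member probe set on the 8 arrays, by group (supine, prone, NV); symbols mark the replicate number, bars the group mean and the dotted line the filter at log2 5. Prone replicates 2 and 3 lie far below prone replicate 1 for the granzymes and Nkg7 (Gzma 3.22 and 2.11 against 9.49), while Ctsw stays below the filter line throughout.

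Across the 8 arrays the 6 tested members had Pearson correlations of 0.46 (Gzmb with Prf1) to 0.97 (Nkg7 with Klrd1), with a median of 0.86 over 15 pairs. With the group means taken out the range was 0.59 to 0.98 and the median 0.87. These arrays share tissue, groups and replicate numbers, and the values describe the 8 arrays only. The low end of the scale limits how far each gene can fall. The mean of the 6 members, each centred on its own mean, was 1.45, 0.46 and -0.08 in supine lungs, 1.14, -2.85 and -3.27 in prone lungs, and 2.16 and 0.99 in NV lungs. Replicate 1 was the highest of its group in this mean in all 3 groups. Within NV lungs replicate 1 exceeded replicate 2 by 0.85 (Gzmk) to 1.48 (Gzma) for the tested members.

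**Figure D2:**
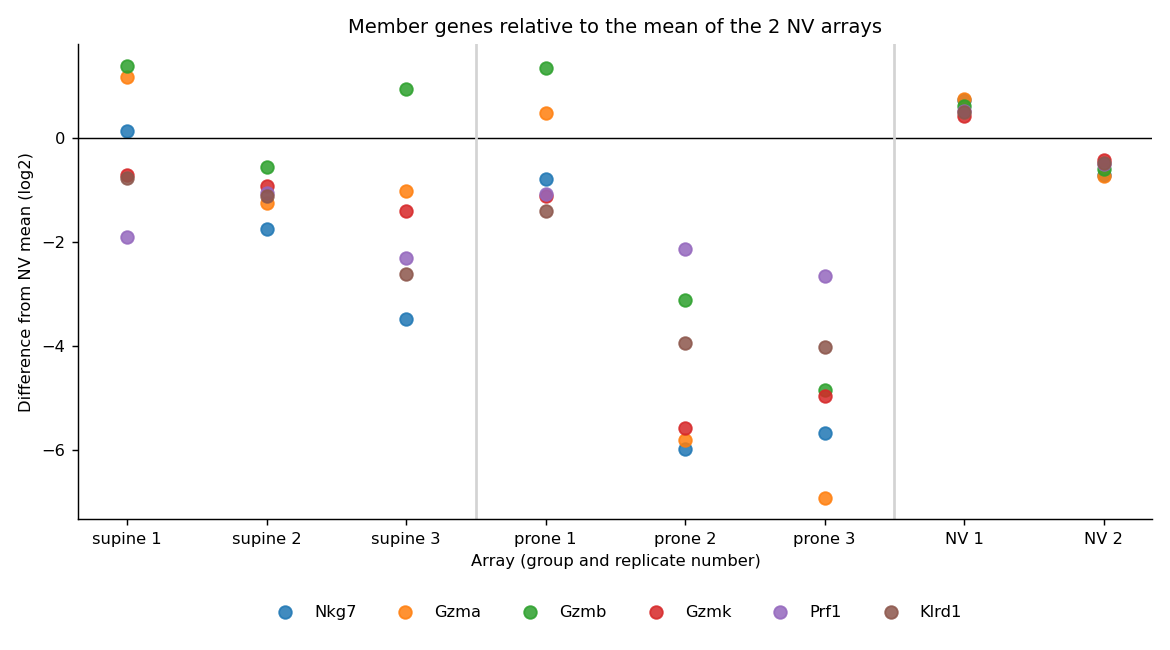
Difference of each tested member from the mean of the 2 NV arrays (log2, vertical axis) on each array, with Gzmb by its brighter probe set. On prone replicates 2 and 3 all 6 genes lie 2.15 or more below the NV mean, whereas on supine replicate 1 and prone replicate 1 Gzma and Gzmb lie above it and Prf1 and Klrd1 below it.

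In prone against NV lungs all 6 tested members were lower in the mean, with a median difference of -3.51, against -0.15 over the 10240 named genes tested. The differences, with standard errors of a limma model, were -4.14 ± 1.67 for Nkg7, -4.08 ± 2.02 for Gzma, -2.21 ± 1.62 for Gzmb (-2.91 ± 1.81 on its second probe set), -3.89 ± 1.19 for Gzmk, -1.97 ± 0.59 for Prf1 and -3.12 ± 0.90 for Klrd1. 0 of the 6 passed limma at a Benjamini-Hochberg adjusted p under 0.05 over all probe sets, where 0.0533% of probe sets passed, and 4 had an unadjusted p under 0.05, where 17.7% of probe sets did. The groups did not overlap for 4 of the 6 (Nkg7, Gzmk, Prf1 and Klrd1), and 29% of named genes were lower without overlap. The rule that chose the members used this contrast, so nothing is read from these counts. The count of passes rose without prone replicate 1, the prone array with the highest granzyme readings. Without it Gzma and Gzmk passed (-6.35 and -5.27), where 0.681% of probe sets passed, and the median was -4.63. Without the first prone and supine replicates, Nkg7 and Klrd1 passed too (4.31% of probe sets). Nothing is read from these passes either, for the same reason. Leaving out prone replicate 1 put Gzmb at -3.98, and leaving out prone replicate 3 put it at -0.89 and Gzma at -2.66. With replicate number as a blocking term, 0 members passed again and their median was -2.91.

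In supine against NV lungs the members divided. Prf1 was -1.76 ± 0.59, Nkg7 -1.71 ± 1.67, Klrd1 -1.50 ± 0.90 and Gzmk -1.02 ± 1.19, whereas Gzma stood at -0.37 ± 2.02 and Gzmb at 0.58 ± 1.62 (0.04 ± 1.81 on the second probe set). The median was -1.26, against -0.07 over all named genes. 0 of 6 passed limma over all probe sets (0.0533% passed), 1 of 6, Prf1, had an unadjusted p under 0.05 (15.2% of probe sets did), and 3 of 6 were lower without overlap (Gzmk, Prf1 and Klrd1; 22.9% of named genes were). This comparison shares the NV arrays with the prone one. Its standard errors also come from a spread per gene shared by all 3 groups. For each tested member the standard deviation was largest in prone lungs. For Gzmk it was 0.35 in supine, 0.60 in NV and 2.41 in prone lungs, so the error of ± 1.19 mostly reflects the prone arrays. The sign for Gzma was not stable, at 0.37 without NV replicate 1, 0.07 without supine replicate 2, -1.11 without NV replicate 2, -1.14 without supine replicate 1, -0.05 without supine replicate 3 and 0.50 with the replicate block. Gzmb was -0.03 without NV replicate 2, 0.17 without supine replicate 1, 1.18 without NV replicate 1, and 1.15 without supine replicate 2 and with the block. Without supine replicate 3, the array with the wide beta-actin gap, Nkg7 was -0.82, Klrd1 -0.95 and the median -0.82. Without NV replicate 1 Nkg7 was -0.98, Gzmk -0.59 and the median -0.79, and without supine replicate 1 Nkg7 was -2.62. With the block Nkg7 was -0.88, Klrd1 -0.999, Gzmk -0.65 and the median -0.77.

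Supine against prone lungs compares body positions at the same ventilation. This comparison reuses the prone arrays on which lymphocyte markers were known to be low. Its differences are therefore a description, and nothing is read from its counts. All 6 tested members were higher in the mean in supine lungs, with a median of 2.61 against 0.07 over all named genes. Of all named genes 42.8% were lower in supine than in prone lungs. Gzma was 3.71 ± 1.81, Gzmk 2.88 ± 1.07, Gzmb 2.79 ± 1.45, Nkg7 2.44 ± 1.49, Klrd1 1.62 ± 0.81 and Prf1 0.20 ± 0.53. For all 6 the groups overlapped, since prone replicate 1 lay within the supine range, and 3.58% of named genes were higher without overlap. By replicate number 1 to 3, supine minus prone was 0.69, 4.54 and 5.88 for Gzma and 0.41, 4.66 and 3.56 for Gzmk. It was 0.04, 2.55 and 5.77 for Gzmb, 0.91, 4.23 and 2.18 for Nkg7, and 0.63, 2.82 and 1.41 for Klrd1. Prf1 was at -0.82, 1.08 and 0.35. No label says that the number pairs the rats. The share of all genes with the same sign in every replicate number was not computed. With the replicate block the differences of means were the same and 0 members passed (limma adjusted p 0.670 to 0.912). 0 of 6 passed limma over all probe sets (0% passed), and 1 of 6, Gzmk, had an unadjusted p under 0.05 (4.09% of probe sets did). Without prone replicate 1 Gzma was 5.98, Gzmb 4.56, Nkg7 4.12, Klrd1 2.48 and the median 4.19. Without prone replicate 3 Gzma was 2.29, Gzmb 1.47 and the median 1.57. Nkg7 was 1.52 without prone replicate 2 and 1.53 without supine replicate 1. Prf1 was -0.14 without prone replicate 3, -0.15 without supine replicate 2 and 0.64 without prone replicate 1.

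**Figure D3:**
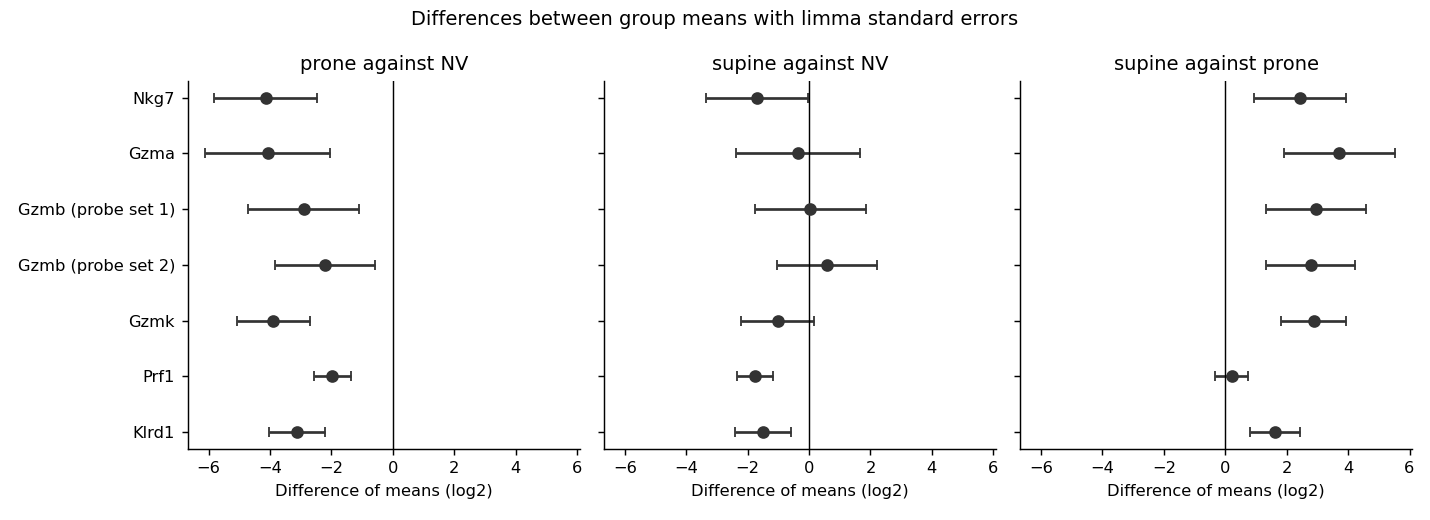
Difference between group means (log2, horizontal axis) for the 7 probe sets of the 6 tested members in each comparison, with bars of 1 standard error from the limma model. Differences from NV are all negative in prone lungs, lie on both sides of 0 in supine lungs, and are near 0 between positions for Prf1 alone of the members (0.20 ± 0.53).

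The other genes of the pathway were read from 6 lists of 96 genes, of which 65 were on the array with a symbol of their own and 58 were tested. Limma passed 0 of the 58 in each comparison (smallest adjusted p = 0.131 in prone, 0.269 in supine against NV, and 0.942 in supine against prone lungs). At an unadjusted p under 0.05 there were 19 lower and 3 higher in prone lungs, 6 lower and 1 higher in supine lungs, both against NV, and 1 higher in supine against prone lungs. Over all probe sets 17.7%, 15.2% and 4.09% had such a p in these comparisons, in the same order. Below, counts of genes lower in the mean stand against 58.8% of all named genes in prone and 54% in supine lungs. Genes lower than NV without overlap were 29% of named genes in prone and 22.9% in supine lungs. The median difference of the 58 pathway genes was -0.68 in prone and -0.45 in supine lungs, against -0.15 and -0.07 over all named genes.

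Among other granule proteins and killing effectors, 5 of 7 tested genes were lower in prone and 4 of 7 in supine lungs than in NV lungs. Gzmm, granzyme M, was lower than NV in both positions, and in supine lungs by more than any tested member. It read 7.69, 6.76 and 4.58 in supine lungs, 7.11, 4.18 and 4.02 in prone lungs, and 10.13 and 8.79 in NV lungs, with every ventilated array below both controls (-4.36 ± 1.18 in prone, limma adjusted p = 0.142; -3.12 ± 1.18 in supine, adjusted p = 0.299). Cst7, cystatin F, an inhibitor of the cathepsins that process granule proteins, stood at 1.11 ± 1.73 in prone and 1.93 ± 1.73 in supine lungs. Its prone value was -0.41 without prone replicate 1, 0.39 without NV replicate 2, 1.84 without NV replicate 1, 2.45 without prone replicate 3 and 2.01 with the replicate block, and its supine value was 0.73 without supine replicate 1 and 1.21 without NV replicate 2. It read 11.87 on supine replicate 1 and 11.68 on prone replicate 1, against 8.25 and 6.81 in NV lungs. Serpinb9, which protects cells from granzyme B, stood at -1.28 ± 0.51 in prone lungs (adjusted p = 0.254), and the death ligand Tnfsf10 at -1.26 ± 0.49 in supine lungs (adjusted p = 0.3; -0.80 without supine replicate 3). For genes of granule release, medians over 9 genes were -0.36 in prone and -0.46 in supine lungs, and Vamp7, a vesicle fusion protein, stood at -1.46 ± 0.49 in supine lungs (adjusted p = 0.269).

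NK receptors and adaptors were lower for 9 of 10 tested genes in prone and 7 of 10 in supine lungs, with medians of -1.59 and -0.65. The receptor gene Klrb1a read 8.51, 7.60 and 7.08 in supine lungs, 6.88, 3.83 and 3.74 in prone lungs, and 9.36 and 7.85 in NV lungs. Here the supine and prone arrays did not overlap (2.91 ± 0.90, limma adjusted p = 0.942), which held for 3 of the 58 pathway genes. Of named genes 3.58% were higher in supine than in prone lungs without overlap. Klrb1a in prone lungs stood at -3.79 ± 1.01 against NV (limma adjusted p = 0.138). Without prone replicate 1, its highest prone reading, adjusted p was 0.0395, where 0.681% of probe sets passed. The adaptor Hcst stood at -2.57 ± 1.35 in prone lungs (-1.50 without prone replicate 2), the Fc receptor Fcgr3a at -2.21 ± 0.80 in prone and -1.64 ± 0.80 in supine lungs, and the signalling chain Cd247 at -1.81 ± 0.70 and -1.31 ± 0.70 (-1.20 and -0.69 without NV replicate 1). Klrb1b, another receptor of the Klrb1 family, stood the other way at 1.70 ± 0.43 in prone lungs (adjusted p = 0.131), with readings of 3.34 to 5.78 near the low end. Klrk1, Ncr1 and Ncr3 were below log2 5 on all arrays and Klrb1c on all but 1.

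Genes of the T cell receptor complex and signalling were lower for all 9 tested in both ventilated groups (medians -2.13 in prone and -1.20 in supine lungs). Their median by array did not have the order of Gzma and Gzmb in prone lungs. Cd8a did have the order of Gzma and Gzmb there, at 7.83, 6.81 and 5.87 on its brightest probe set. The other tested genes of the list read highest of the prone arrays on prone replicate 2. On prone replicate 1, where Gzma read 9.49 and Gzmb 10.25, their median stood 1.42 below the NV mean, and on prone replicate 2, where Gzma read 3.22, it stood 1.07 below. Cd3g, a CD3 chain, read 9.64, 8.49 and 7.89 in supine lungs, 7.82, 8.98 and 6.42 in prone lungs, and 11.18 and 10.01 in NV lungs (-2.85 ± 0.82 in prone, adjusted p = 0.159; -1.92 ± 0.82 in supine, adjusted p = 0.328). Cd5, a T cell surface regulator, stood at -2.73 ± 0.74 and -1.84 ± 0.74. Medians of the NK list on prone replicates 1 to 3 were -0.52, -1.39 and -2.31, against -0.94, -4.76 and -4.91 for the members. The B cell list stood at -2.83, 0.40 and -0.83 on these arrays, and the macrophage list at 0.03, -0.85 and -0.92. No difference between lists was tested.

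**Figure D4:**
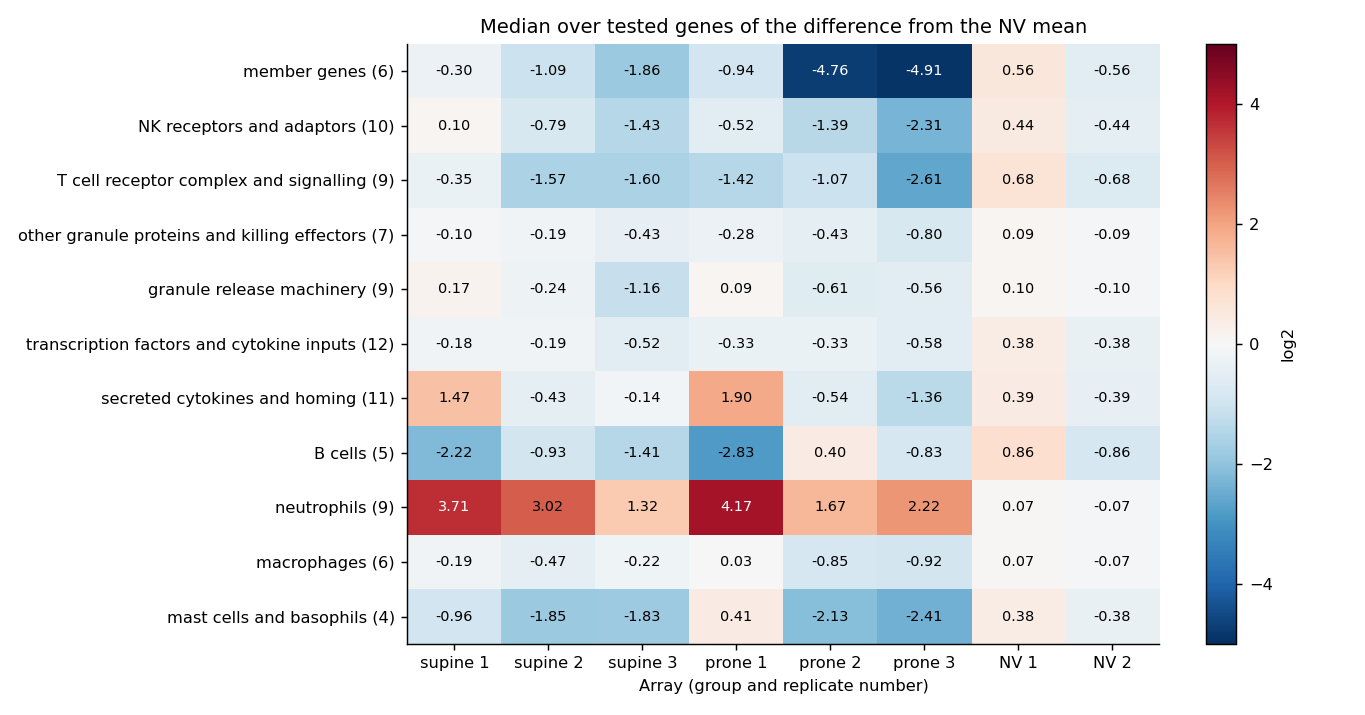
Median over the tested genes of each list (number in brackets) of the difference from the NV mean, in log2, on each array (columns), from blue for lower to red for higher. The member genes are lowest on prone replicates 2 and 3 (-4.76 and -4.91), the T cell list on prone replicate 3 (-2.61), and the neutrophil list is above 0 on all 6 ventilated arrays.

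Of transcription factors and cytokine inputs, the largest difference was that of Nfil3, a factor that mice need to make NK cells and that many cell types induce. It read 10.31, 6.99 and 10.83 in supine lungs, 10.80, 10.59 and 10.26 in prone lungs, and 6.91 and 5.98 in NV lungs (4.11 ± 1.04 in prone, adjusted p = 0.131; 2.94 ± 1.04 in supine, adjusted p = 0.282). Without supine replicate 2, whose reading was close to the controls, adjusted p was 0.033 in prone and 0.034 in supine lungs, where 0.385% and 0.906% of probe sets passed. The supine difference was 2.21 (adjusted p = 0.525) without supine replicate 3 and 2.47 (adjusted p = 0.367) without supine replicate 1. Runx3, a RUNX factor of killer cells, stood at 1.66 ± 0.70 in prone and 1.30 ± 0.70 in supine lungs, Jak3, the kinase of the shared cytokine receptor chain, at 1.02 ± 0.81 and 1.77 ± 0.81, Prdm1 (Blimp-1) at -1.40 ± 0.47 in prone lungs, and Il15, a survival cytokine of NK cells, at -1.37 ± 0.63 and -1.38 ± 0.63. None of these passed. Runx3 was 0.96 in prone and 0.60 in supine lungs without NV replicate 2 and 2.00 in supine lungs without NV replicate 1. Jak3 in prone lungs was 0.32 without prone replicate 1, 0.60 without NV replicate 2 and 1.59 without prone replicate 3.

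Secreted cytokines and homing genes went both ways. Ccl5, a chemokine stored by killer cells, read 11.81, 10.92 and 9.16 in supine lungs, 10.89, 6.47 and 8.34 in prone lungs, and 12.64 and 11.85 in NV lungs (-3.68 ± 1.26 in prone, adjusted p = 0.204; -1.61 ± 1.26 in supine, and -0.88 there without supine replicate 3). S1pr5, a receptor that guides NK cells out of tissue in mice, stood at -2.32 ± 0.90 and -1.03 ± 0.90, and rested on the controls. Its prone value was -1.09 without NV replicate 1 and -3.54 without NV replicate 2, and its supine value was 0.19 and -2.26 without these, -0.58 without supine replicate 3 and -0.63 with the replicate block. The integrin chain gene Itgal stood at -4.68 ± 2.00 in prone lungs, most of it from a reading of 1.92 on prone replicate 1 (-2.30 without that array). Cxcl9, a chemokine that draws killer cells, was high on the first replicates of both ventilated groups. It read 7.86 on supine replicate 1 and 9.97 on prone replicate 1, and 2.75 to 3.13 on the other 6 arrays. Cxcl9 stood at 2.23 ± 2.37 in prone and 1.46 ± 2.37 in supine lungs, Cxcl10 at 2.09 ± 2.60 in supine lungs and Ccl4 at 2.18 ± 2.21 and 2.11 ± 2.21. Without the first replicate of the group Cxcl9 was -0.11 in prone and -0.21 in supine lungs, Ccl4 was -0.046 and 0.61, and Cxcl10 was 0.56 in supine lungs. Without prone replicate 3 Cxcl9 was 3.41, as without prone replicate 2, and Ccl4 3.43, and in supine lungs Cxcl9 was 2.34 without supine replicate 2 and 2.27 without supine replicate 3. With the replicate block Cxcl9 was 2.45 and Cxcl10 3.13 in supine lungs, and Cxcl10 was 1.14 there without NV replicate 2. On the first replicates of both ventilated groups the neutrophil list was highest, and Gzma and Gzmb exceeded the NV mean. Both genes also exceeded it on NV replicate 1, and Gzmb by its brighter probe set on supine replicate 3 (0.92). A link between these readings was not tested.

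The genes whose values ran most like the mean of the members over the 8 arrays were Fbxl12, Wdr89, S1pr2, Mrpl41, Sephs2, Spn, Aifm1, Uqcc4, Klrb1a and Slc9a8, with Pearson correlations of 0.97 to 0.99. Of the 10234 other named genes, 2.61% had a correlation above 0.9, so such likeness was common on 8 arrays. Spn, the leukocyte surface protein CD43, read 10.09, 9.66 and 8.48 in supine lungs, 9.28, 6.36 and 4.94 in prone lungs, and 11.60 and 9.98 in NV lungs. With group means taken out the 10 most alike were Mettl2, Obi1, Atp6v0a2, Bik, Capza1, Klrb1a, Zfp346, Fbxl12, Macir and Nxt2 (0.98 to 0.99), and 4.3% of genes were above 0.9. Klrb1a and Fbxl12 were in both groups of 10.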

How the data were processed

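RNA (300 ng per sample) was labelled with biotin and hybridised to 1-colour Affymetrix rat arrays. Per the submitters' processing notes, the log2 values the authors deposited were made with GCRMA and Partek 6.5, with no role or order given. GCRMA as a method corrects background, scales arrays to common quantiles and summarises probe sets. No filter is named there. Scan dates and detection calls were not used here. Samples were grouped by title, and titles call them biological replicates. The p-values measure the spread between these samples. The number of arrays (2 to 3 per group) limits the precision.

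28 control probe sets were set aside. Of 20214 others, 16896 at log2 5 or above on at least 2 arrays were fitted with limma 3.58.1 in R 4.3.3 (1 mean per group, 8 arrays, eBayes, two-sided, Benjamini-Hochberg over all 16896). There were 5 residual and 2.51 prior degrees of freedom. The fit was tested on simulated data. Symbols came from GEO's platform annotation. Symbols of all 8 member probe sets matched the RefSeq table. The probe set with the highest mean stood for a gene, and 319 tested probe sets with several symbols and 3422 with none went unnamed.

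Members, lists and tests were chosen with earlier results of these data known. Named pathway genes were, per list, the 2 largest differences up and down against NV in each position, and genes that passed. The text gives those with a difference of at least 1, a narrowing made after the values were seen. Mast cell genes, Spn and genes named for tissue quality fall outside this rule. Likeness was Pearson's r, top 10.

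Deviations from group means were correlated over tested probe sets. Between samples of the same replicate number r was 0.72, 0.29 and 0.20 between prone and supine replicates 1 to 3, 0.21 and 0.11 between prone and NV, and 0.23 and 0.33 between supine and NV. Between samples of different number r was -0.59 to 0.40 (14 pairs), at 0.40 for prone 3 with supine 2. Deviations within a group cancel out, so the different-number values are not independent of the same-number ones. Every same-number r was over 0.1, the bar for a fit with the number as a block. No label says what the number marks, and the printed differences come from the fit without it. Block values are given where they change a call or move a difference by over 1.5 times.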

Additional observations from a re-analysis of the deposited data

How the results depend on the processing

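The members' differences were computed under 18 alternatives: 2 filters, 2 scalings, an intensity trend, only the compared groups, the replicate block, the mean of probe sets, each array left out, and 2 pairs of arrays left out, the pair prone 2 and supine 3 being added after seeing the data. All 6 tested members stayed below 0 in prone against NV lungs under all 18 alternatives. In supine lungs Gzma was above 0 in 3 of 18 and Gzmb below 0 in 1, and between positions Prf1 was below 0 in 2. The count of members passing in prone lungs was 0, or 0 to 2 when 1 array was left out. It was 4 without the first prone and supine replicates, where 4.31% of probe sets passed. It was 0 in every alternative for the other comparisons, also when 1 array was left out. With 1 array left out the members' median was -4.63 to -2.67 in prone, -1.71 to -0.79 in supine and 1.57 to 4.19 in supine against prone lungs. Without any filter Ctsw enters, and no setting moved a median by more than the spread between replicates. Of all probe sets, 9 passed in prone and 9 in supine lungs against NV. These counts were 35 and 18 with no filter, 0 and 0 at a filter of log2 7, 0 and 0 with an intensity trend, 119 and 0 with only the compared groups, 0 and 0 with the replicate block, 728 and 0 without both first ventilated replicates, and 0 and 0 without prone replicate 2 and supine replicate 3. With 1 array left out they were 0 to 115 and 0 to 153, and 0 to 3 between positions. Pathway genes passing in prone lungs were 0 of the 58 tested, with 1 when only the compared groups were fitted (Nfil3) and 0 to 1 with 1 array left out. Without both first replicates 6 of 58 passed (Gzmm, Serpinb9, Klrb1a, Fcgr3a, Prdm1 and Ccl5), where 4.31% of probe sets did. In supine lungs they were 0 to 1 with 1 array left out. Without both first replicates Cst7 (-0.41), Ccl4 (-0.046) and Cxcl9 (-0.11) were below 0 in prone lungs and Cxcl9 (-0.21) in supine lungs. With 1 array left out, differences in prone lungs ranged from -0.41 to 2.45 for Cst7, -0.046 to 3.43 for Ccl4 and -0.11 to 3.41 for Cxcl9, and in supine lungs from -0.21 to 2.34 for Cxcl9 and -2.26 to 0.19 for S1pr5. The cause was not tested. The replicate block changed no call of a member or pathway gene.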

Other observations

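Mast cells and basophils also store proteases in granules. Of 7 of their markers on the array 4 were tested, and 0 passed limma in either comparison with NV, where 0.0533% of probe sets passed. In limma 1 had an unadjusted p under 0.05 in prone and 2 in supine lungs, where 17.7% and 15.2% of probe sets did. Fcer1a, a chain of the IgE receptor, read 6.04, 4.44 and 4.85 in supine lungs, 6.19, 4.72 and 3.67 in prone lungs, and 7.81 and 7.04 in NV lungs. Its differences were -2.57 ± 0.78 in prone (limma adjusted p = 0.169) and -2.31 ± 0.78 in supine lungs (adjusted p = 0.269). Every ventilated array lay below both controls. Of named genes 29% in prone and 22.9% in supine lungs were lower than NV without overlap. Cpa3, a mast cell carboxypeptidase, stood at -1.72 ± 0.87 in prone lungs, overlapping NV, and at -2.21 ± 0.87 in supine lungs. The proteases Tpsab1 (-1.06 ± 0.86 in prone, -0.53 ± 0.86 in supine) and Mcpt1 (0.31 ± 0.92 and -0.60 ± 0.92) overlapped NV in both groups. Kit, Ms4a2 and Tpsb2 were below log2 5 on all arrays. These genes were named after their values were seen.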
